A study of Mus musculus with 30 samples.

Results

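The genes described here encode subunits and partners of the Polycomb repressive complexes in mouse embryonic stem cells (ESCs). There are 10 of them, Ezh2, Suz12, Eed, Jarid2, Mtf2, Phc1, Rnf2, Ring1, Cbx7 and Bmi1, among 18097 gene symbols on the array, and they were taken by symbol alone, without regard to their values. They are read by 14 of the 25697 probes, with 3 probes each for Ezh2 and Phc1 and 1 for each of the others. Of these 14 probes 13 passed the filter on dim signals, so all 10 genes were tested. The 30 Illumina mouse arrays came from 5 clones of Ainv15, an ESC line that carries the reverse tetracycline transactivator. In the clones Bub1b_R, Chek1_R, Ppm1g_R and Ppp2r1b_R a short hairpin RNA (shRNA) was directed against the endogenous messenger RNA of the gene in the clone's name, and doxycycline (Dox) turned on a copy that the shRNA could not recognise, which "rescues" the gene. Ctrl_R is the control clone, labelled Control_R, and its labels give the strain background 129P2/OlaHsd. Every clone was measured with Dox at 1 µg/ml and after 5 days without it, on 3 arrays each, so all 10 conditions share the transactivator and the withdrawal comparison includes the control. The 4 clones with a named target are called depleted clones below, which names their design and not a measured level. Cells were kept on mouse embryonic fibroblast feeders in medium with leukemia inhibitory factor, and the study states that the cells for the arrays were grown without feeders. Whether the 3 arrays of a condition came from 1 clone or several, or from separate cultures, is not stated, so p-values measure the spread between these samples, which may be technical.

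Polycomb proteins keep developmental genes silent. Polycomb repressive complex 2 (PRC2) is built on Ezh2, which methylates histone H3 at lysine 27, together with Suz12 and Eed, without which Ezh2 is not active, and Jarid2 and Mtf2 help bring it to its sites on chromatin. Polycomb repressive complex 1 (PRC1) is built on the ubiquitin ligases Rnf2 (Ring1B) and Ring1 (Ring1A), which modify histone H2A. Cbx7 reads the methyl mark, Bmi1 partners the ligase, and Phc1 joins complexes to each other. In ESCs these complexes sit on the promoters of lineage regulators, many of which are switched on at differentiation.

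The arrays were of even quality, with 11733 to 13685 probes detected and correlations of 0.990 to 0.997 between replicate arrays. The lowest signal called detected was 12.9 to 20.9 on the 12 Bub1b_R and Ctrl_R arrays and 27.8 to 58.1 on the 18 others, so by this measure the clones fall into 2 sets of arrays. The sample labels used here do not name these sets. The Ctrl_R samples were registered separately from those of all depleted clones. A batch difference of Ctrl_R from Bub1b_R thus cannot be told apart from clone either. Within a clone the arrays with and without Dox belong to 1 set, whereas differences of Ppm1g_R, Ppp2r1b_R and the Chek1_R-labelled arrays from Ctrl_R run across the sets, where set and clone cannot be told apart. Values below are log2 intensities after normalization across the 30 arrays, and a difference is the mean without Dox minus the mean with Dox, in log2 units. A gene is said to rise or fall where its adjusted p in limma was under 0.05, and to change by 1.5-fold where the difference also reached that size. Upon Dox withdrawal the targeted messenger RNA fell in Ppm1g_R (-1.25, adjusted p = 4.5e-09), whereas Bub1b differed by -0.14 in Bub1b_R (adjusted p = 0.217) and Ppp2r1b by 0.20 in Ppp2r1b_R (adjusted p = 0.365). For the Chek1_R-labelled arrays, Chek1 was detected on 0 of 3 arrays with Dox and 3 of 3 without it. Its level thus rose upon withdrawal, by 1.35-fold or more (adjusted p = 0.00115), where Ppm1g fell in Ppm1g_R. The cause of this rise was not tested. Some targets were below Ctrl_R with Dox already. Bub1b was lower in Bub1b_R by 0.70 with Dox (adjusted p = 1.08e-07) and 0.67 without it (adjusted p = 1.05e-07), and Ppp2r1b was lower in Ppp2r1b_R by 0.61 with Dox (adjusted p = 0.00124), against -0.25 without it (adjusted p = 0.158). Ppm1g was lower in Ppm1g_R by 0.33 with Dox (adjusted p = 0.00745) and 1.74 without it (adjusted p = 5.66e-13). Chek1 averaged 5.31 with Dox and 6.01 without it in the Chek1_R-labelled arrays. These means were below the 7.18 and 7.08 of Ctrl_R (adjusted p = 1.33e-09 and 3.06e-06). Over all other conditions the Chek1 means were 6.95 to 7.27, so its lowest levels were on the arrays labelled for it. Whether a probe reads the endogenous transcript, the rescue copy or both is not given in the sources used here.

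All 7 measured ESC markers were detected on every array. Their summed level was lower on every array without Dox than on any with it in each clone, going from 29600 to 30500 down to 23000 to 23700 in Bub1b_R, from 31000 to 31200 down to 26400 to 27800 in the Chek1_R-labelled arrays, from 34300 to 36900 down to 29800 to 30600 in Ppm1g_R, from 26700 to 28200 down to 18200 to 18400 in Ppp2r1b_R, and from 33600 to 34700 down to 30300 to 31500 in Ctrl_R, in intensity units. These are sums over cells in bulk RNA, in which fewer cells of a type and less RNA per cell cannot be told apart. They are in linear units, so the brightest markers weigh most and the markers need not fall together. In Ctrl_R the log2 mean of Esrrb went from 13.85 to 13.54, and those of Pou5f1, Sox2 and Zfp42 were lower too. Nanog went up there from 12.34 to 12.51, Tdgf1 from 9.80 to 10.16 and Utf1 from 10.68 to 10.70. Of 8 markers of feeder fibroblasts Col1a2, Lum and Postn were detected on no array, and the sum of the list ran from 587 to 1000 over the 30 arrays. The 4 markers of the primitive streak passed the test as higher in every depleted clone, and 2 of them in Ctrl_R. Mixl1 and Eomes were detected on no array of Ppp2r1b_R, so their calls in that clone compare signals below detection.

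**Figure D1:**
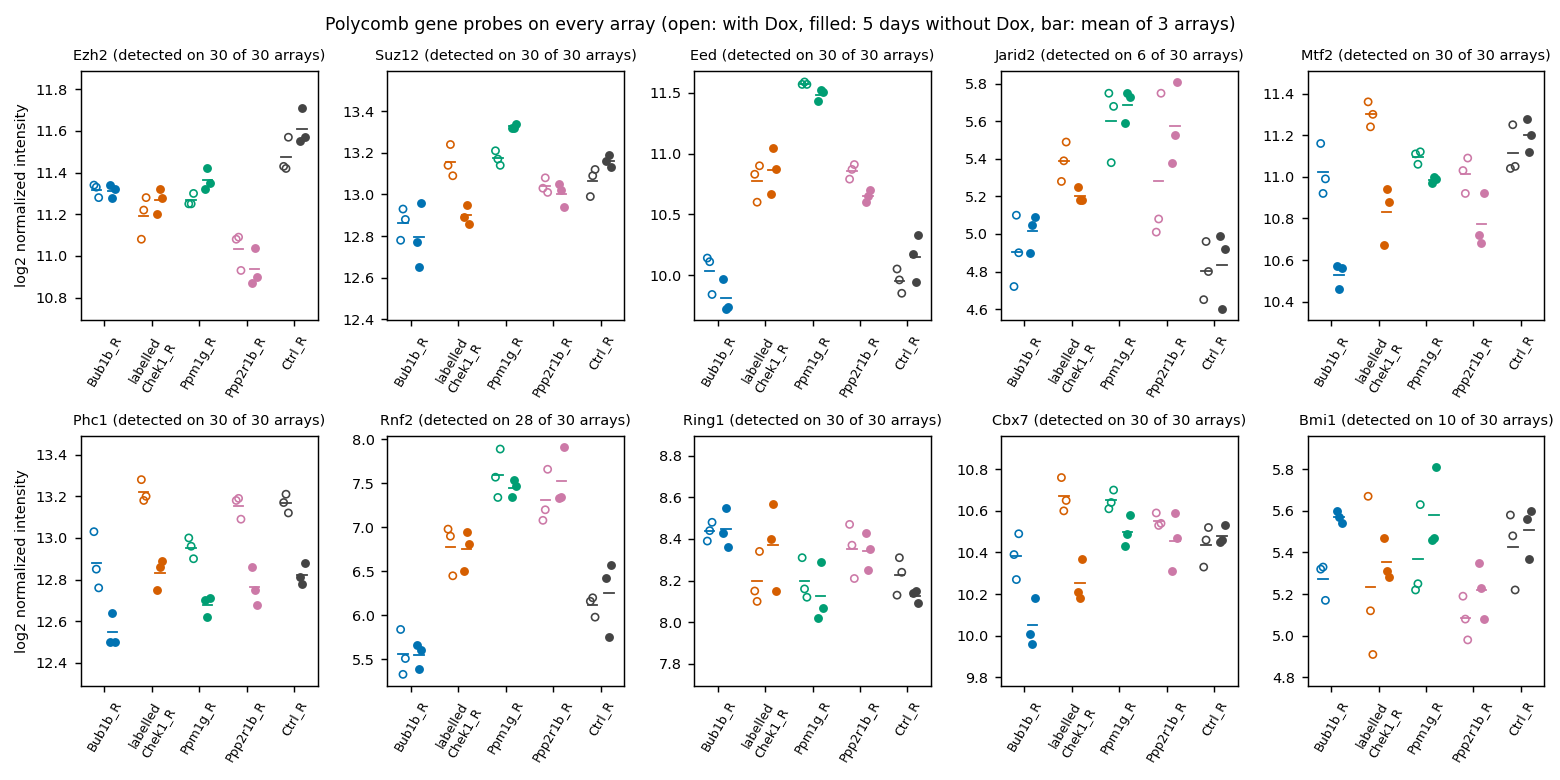
Log2 intensity of the brightest probe of each of the 10 genes on the 30 arrays, by clone, with open points for arrays with Dox, filled points for arrays without Dox and a bar at each mean of 3 arrays; every panel has its own vertical range. Phc1 is lower without Dox in every clone, Mtf2 and Cbx7 are lower in some depleted clones and not in Ctrl_R, and Eed and Rnf2 differ between clones more than with Dox. So do the readings of Jarid2, which lie near the detection limit, with detection on 6 of 30 arrays. Across the sets of arrays, set and clone cannot be told apart.

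To learn which Polycomb genes respond when Dox is withdrawn, each clone without Dox was compared with the same clone with Dox. Phc1 fell in all 4 depleted clones and in Ctrl_R, by 17.5 to 23.6%. Mtf2 fell in Bub1b_R, in the Chek1_R-labelled arrays and in Ppp2r1b_R, and Cbx7 in Bub1b_R and in the Chek1_R-labelled arrays. Suz12 fell in the Chek1_R-labelled arrays. Counting each gene by its brightest probe, 3 of 10 genes passed the test in Bub1b_R against 24.4% of all 15151 probes tested, 4 in the Chek1_R-labelled arrays against 30.9%, 1 in Ppm1g_R against 23.4%, 2 in Ppp2r1b_R against 25.3% and 1 in Ctrl_R against 7.55%. All of these were lower without Dox, and the share of all probes that passed as lower was 12.8, 16.5, 11.7, 12.9 and 3.48% in the same order. No gene of the 10 changed by 1.5-fold in any clone by its brightest probe, where 5.6, 9.27, 4.37, 4.82 and 1.1% of all probes did, and the unadjusted p was under 0.05 for 4, 4, 2, 2 and 1 of them. The median difference of the 10 genes was -0.04, -0.10, -0.08, -0.07 and 0.08 in that order, where the median over all 11177 genes tested lay between -0.02 and -0.01. In counts of either direction these shares lie near the background of each clone and are no result about the group, and the changes described are those of named subunits.

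**Figure D2:**
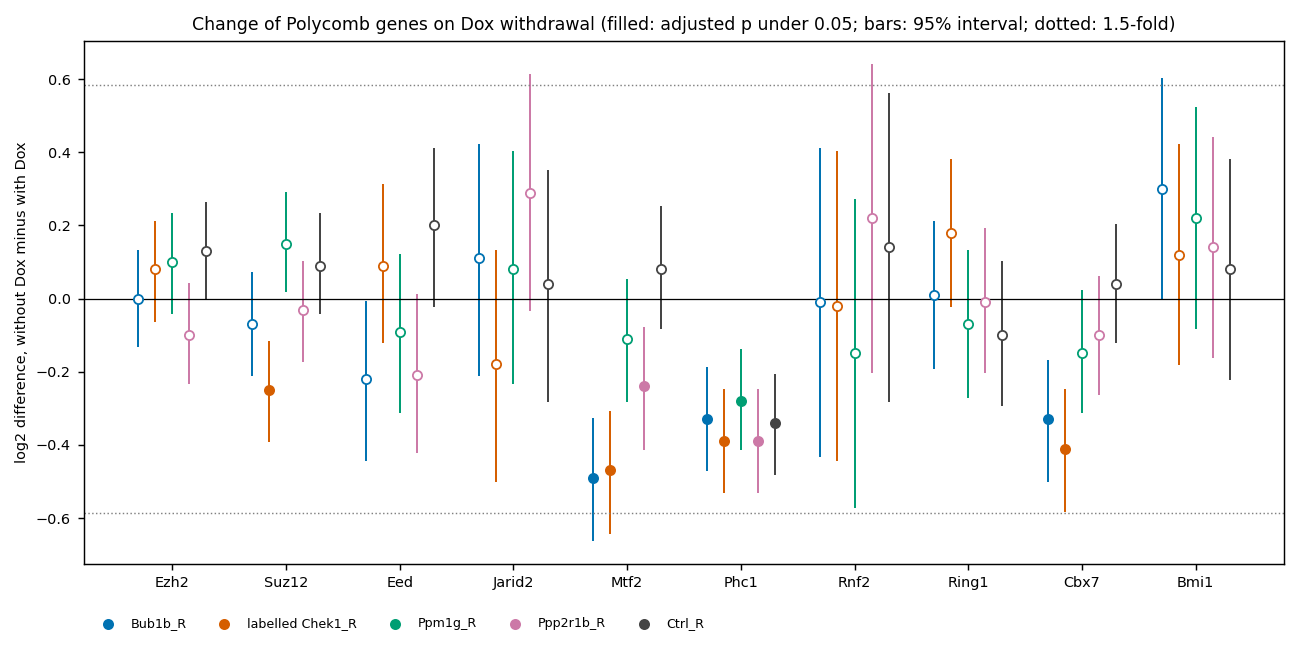
Log2 difference, without minus with Dox, of the brightest probe of each gene in each clone; points are differences of means of 3 arrays, bars their 95% confidence intervals from limma, filled points have an adjusted p under 0.05, and dotted lines mark 1.5-fold. The 5 filled Phc1 points lie between -0.39 and -0.28, while every interval of Rnf2 spans 0.

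Among the core subunits of PRC2, Suz12 was the only one whose brightest probe passed the test in any clone. In the Chek1_R-labelled arrays its values were 13.14, 13.24 and 13.09 with Dox and 12.89, 12.95 and 12.86 without it. These groups did not overlap, and Suz12 fell by 0.25 (SE 0.07, adjusted p = 0.00409). In Ppm1g_R it was 13.21, 13.17 and 13.14 with Dox and 13.32, 13.32 and 13.34 without it. That difference ran the other way without passing the test (0.15, adjusted p = 0.102), and the differences were -0.07 in Bub1b_R, -0.03 in Ppp2r1b_R and 0.09 in Ctrl_R. After median scaling in place of quantiles the difference in the Chek1_R-labelled arrays was -0.19 with an adjusted p of 0.132.

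Ezh2, the methyltransferase itself, did not pass the test in any clone by its brightest probe. That probe read 11.34, 11.33 and 11.28 with Dox and 11.34, 11.28 and 11.32 without it in Bub1b_R, and 11.43, 11.42 and 11.57 against 11.55, 11.71 and 11.57 in Ctrl_R. The groups overlapped in both clones, and the differences over the 5 clones ran from -0.10 to 0.13, with adjusted p of 0.238 to 0.998. The widest 95% intervals reached from -0.23 to 0.26. The second brightest Ezh2 probe read 6.62, 6.44 and 6.75 with Dox and 7.22, 6.87 and 6.98 without it in the Chek1_R-labelled arrays, a rise of 0.42 (SE 0.15, adjusted p = 0.0315) that the brightest probe, at 0.08 (adjusted p = 0.412), did not show. The probes of this gene thus disagreed there, and the remaining Ezh2 probe was detected on 0 of 30 arrays.

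Eed, which binds the methyl mark and stimulates Ezh2, did not pass the test in any clone. Its values in Bub1b_R were 10.14, 10.11 and 9.84 with Dox and 9.97, 9.72 and 9.74 without it (-0.22, adjusted p = 0.13). In Ppp2r1b_R they were 10.79, 10.87 and 10.91 against 10.60, 10.65 and 10.70, which did not overlap (-0.21, adjusted p = 0.153). Without Bub1b_R with Dox replicate 3 the difference in Bub1b_R was -0.32 (adjusted p = 0.0408). Ctrl_R gave 0.20 (adjusted p = 0.281), Ppm1g_R -0.09 and the Chek1_R-labelled arrays 0.09.

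Jarid2, a cofactor without demethylase activity that guides PRC2, lay near the detection limit. It was detected on 6 of 30 arrays, all of them from Ppm1g_R and Ppp2r1b_R. Over the 30 arrays its values ran from 4.60 to 5.81, and no withdrawal difference passed the test, at -0.18 to 0.29 with SE 0.15. The highest, in Ppp2r1b_R, came from values of 5.01, 5.08 and 5.75 with Dox and 5.38, 5.53 and 5.81 without it. One array with Dox stood apart there, and it was the only one of that group to detect Jarid2. Without that replicate 3 the difference was 0.52 (adjusted p = 0.00702), set against arrays with Dox that lay below detection.

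Mtf2, also known as Pcl2, binds unmethylated CpG-rich DNA and helps PRC2 onto it. In Bub1b_R it read 11.16, 10.92 and 10.99 with Dox and 10.57, 10.46 and 10.56 without it. For the Chek1_R-labelled arrays it read 11.36, 11.24 and 11.30 with Dox and 10.67, 10.94 and 10.88 without it. Neither pair of groups overlapped, with a gap wider than the spread within either, and Mtf2 fell by 0.49 (SE 0.08, adjusted p = 5.3e-05) in the first and by 0.47 (SE 0.08, adjusted p = 5.35e-05) in the second, or by 28.8 and 27.9%. In Ppp2r1b_R the values were 11.03, 10.92 and 11.09 with Dox and 10.72, 10.68 and 10.92 without it. These groups met at 10.92, and the difference of -0.24 had an adjusted p of 0.0282. It rested on single arrays: the adjusted p was 0.0767 without Ppp2r1b_R with Dox replicate 1, 0.103 without its replicate 3, 0.0922 without Ppp2r1b_R without Dox replicate 1 and 0.121 without its replicate 2. It was also 0.269 after median scaling and 0.173 with the 6 arrays of this clone normalized and fitted alone. In Ppm1g_R all 3 arrays without Dox, at 10.97, 11.00 and 10.99, lay below those with it, at 11.11, 11.06 and 11.12, but the difference of -0.11 did not pass the test (adjusted p = 0.355). Ctrl_R overlapped, with 11.04, 11.25 and 11.05 against 11.28, 11.12 and 11.20 (0.08, adjusted p = 0.592).

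The catalytic subunits of PRC1 did not pass the test. Rnf2 read 6.16, 6.20 and 5.98 with Dox and 6.43, 5.76 and 6.57 without it in Ctrl_R, and 7.08, 7.20 and 7.66 against 7.33, 7.35 and 7.91 in Ppp2r1b_R. In each of the 5 clones its groups overlapped. Its differences ran from -0.15 to 0.22 with SE 0.20, and the 95% intervals reached from -0.57 to 0.64. Ring1 differed by -0.10 to 0.18 with SE 0.10. The highest was in the Chek1_R-labelled arrays, where values of 8.15, 8.10 and 8.34 with Dox stood against 8.40, 8.57 and 8.15 without it (adjusted p = 0.179). Without the last of these arrays, without Dox replicate 3, the difference was 0.29 (adjusted p = 0.0285).

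Bmi1, known as a repressor of the Cdkn2a locus, was detected on 10 of 30 arrays. In Bub1b_R it read 5.32, 5.33 and 5.17 with Dox, detected on none of these arrays, and 5.60, 5.57 and 5.54 without it, detected on all 3. The groups did not overlap, the fitted difference was 0.30 (adjusted p = 0.147), and the level without Dox was at least 1.07-fold higher. With the 6 Bub1b_R arrays normalized and fitted alone the difference was 0.29 with an adjusted p of 0.024. In the other clones the differences were 0.08 to 0.22, with adjusted p of 0.312 to 0.811.

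Cbx7 is the chromodomain subunit that PRC1 mostly carries in undifferentiated ESCs. In Bub1b_R it read 10.39, 10.27 and 10.49 with Dox and 10.01, 9.96 and 10.18 without it. In the Chek1_R-labelled arrays it read 10.76, 10.60 and 10.65 with Dox and 10.21, 10.18 and 10.37 without it. Neither pair of groups overlapped, and Cbx7 fell by 0.33 (SE 0.08, adjusted p = 0.00248) in the first and by 0.41 (SE 0.08, adjusted p = 0.000211) in the second. In Ppm1g_R the values were 10.61, 10.64 and 10.70 against 10.43, 10.49 and 10.58, lower on all arrays without Dox but not past the test (-0.15, adjusted p = 0.196). In Ppp2r1b_R (-0.10, adjusted p = 0.397) and Ctrl_R (0.04, adjusted p = 0.82) the groups overlapped. Median scaling left -0.26 in Bub1b_R, with an adjusted p of 0.067, and the methods' t-test, after Benjamini-Hochberg, gave 0.0896 there.

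Phc1, the polyhomeotic subunit whose SAM domain links PRC1 complexes, was lower without Dox in all 5 clones. By its brightest probe it read 13.03, 12.85 and 12.76 with Dox and 12.50, 12.64 and 12.50 without it in Bub1b_R. For the Chek1_R-labelled arrays it read 13.28, 13.18 and 13.20 against 12.75, 12.86 and 12.89. In Ppm1g_R the values were 13.00, 12.96 and 12.90 against 12.70, 12.62 and 12.71. Every array without Dox was below every array with Dox, and the same held in the remaining clones. Ppp2r1b_R read 13.18, 13.19 and 13.09 with Dox and 12.86, 12.75 and 12.68 without it. Ctrl_R read 13.17, 13.21 and 13.12 with Dox and 12.81, 12.78 and 12.88 without it. Phc1 fell by 0.33 (adjusted p = 0.000559), 0.39 (adjusted p = 5.95e-05), 0.28 (adjusted p = 0.00334), 0.39 (adjusted p = 0.000127) and 0.34 (adjusted p = 0.00198) in Bub1b_R, in the Chek1_R-labelled arrays, in Ppm1g_R, in Ppp2r1b_R and in Ctrl_R, each with SE 0.07. Relative to Ctrl_R these changes differed by -0.04 to 0.07, and the 95% intervals of those differences lay within -0.24 and 0.26. Thus the drop measured by this probe accompanied removal of Dox in Ctrl_R too. In Ctrl_R it had an adjusted p of 0.118 after median scaling (-0.28) and 0.0754 when the 6 Ctrl_R arrays were normalized and fitted alone (-0.31), and in Bub1b_R it was 0.0513 after median scaling (-0.26). By the methods' t-test after Benjamini-Hochberg it was 0.0916 in Bub1b_R, 0.0577 in Ppp2r1b_R and 0.071 in Ctrl_R.

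The other probes of Phc1 did not give the same picture in every clone. The second brightest read 12.02, 11.98 and 11.93 with Dox and 11.63, 11.73 and 11.86 without it in Ctrl_R, a difference of -0.24 (adjusted p = 0.116). In the Chek1_R-labelled arrays it read 12.01, 11.85 and 11.79 against 11.30, 11.10 and 11.31, and in Ppp2r1b_R 11.93, 11.82 and 11.52 against 11.18, 11.08 and 11.11. These changed by 1.5-fold, at -0.64 (adjusted p = 4.13e-06) and -0.63 (adjusted p = 1.57e-05). Bub1b_R and Ppm1g_R fell less, by 0.37 (adjusted p = 0.00335) and 0.32 (adjusted p = 0.0112). The dimmest probe, detected on 28 of 30 arrays, fell by 0.50 in Bub1b_R (adjusted p = 0.0203), 0.69 in the Chek1_R-labelled arrays (adjusted p = 0.00135) and 0.59 in Ppp2r1b_R (adjusted p = 0.00691), against -0.03 in Ppm1g_R (adjusted p = 0.918) and -0.02 in Ctrl_R (adjusted p = 0.966). So all 3 probes passed the test as lower in Bub1b_R, in Ppp2r1b_R and in the Chek1_R-labelled arrays. In Ppm1g_R the brightest and second brightest passed it, and the dimmest did not. In Ctrl_R only the brightest passed it, while the second brightest was also lower on every array without Dox. Differences between the probes were not tested. Which transcript each probe reads is not given in the sources used here.

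**Figure D3:**
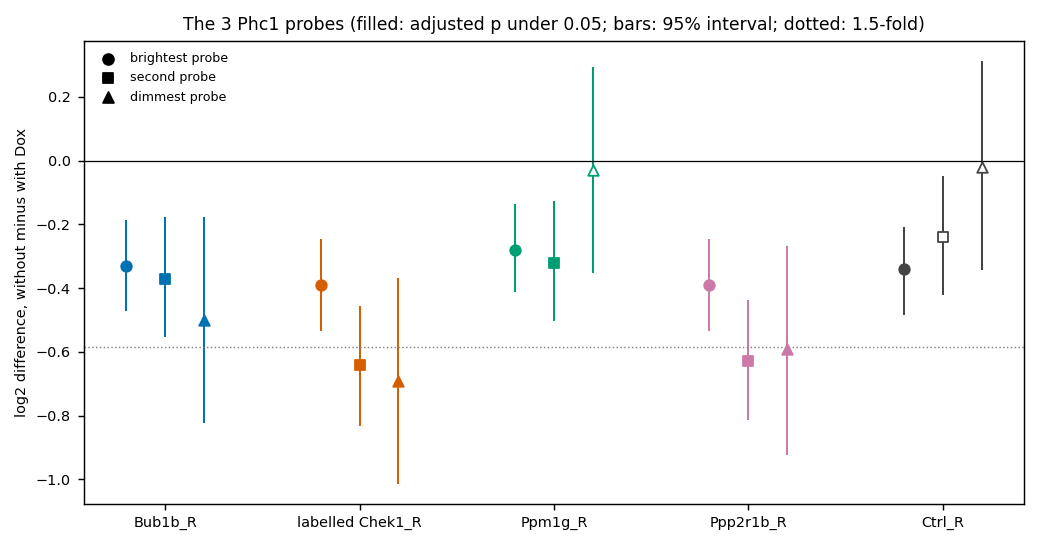
Log2 difference, without minus with Dox, of the 3 Phc1 probes in each clone, with 95% confidence intervals, filled where the adjusted p was under 0.05; the dotted line marks 1.5-fold. In Ctrl_R the probes give -0.34, -0.24 and -0.02, and in the Chek1_R-labelled arrays -0.39, -0.64 and -0.69.

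The promoters of the 3 genes that fell in the mean of the depleted clones are shown because they are the members that passed the test as lower in that mean. They were taken from RefSeq on GRCm38.p6, from 250 bases before to 50 after a start site, and all 10 genes matched, with 12 promoters. Capitals mark the CCAAT box (CCAAT or its reverse complement ATTGG) and the GC box (GGGCGG or its reverse complement CCGCCC), and each line runs 5′ to 3′ on the gene's strand. The Phc1 promoter is chr6:122340178-122340477 on the minus strand, that of Mtf2 chr5:108065424-108065723 on the plus strand and that of Cbx7 chr15:79932597-79932896 on the minus strand.
Phc1: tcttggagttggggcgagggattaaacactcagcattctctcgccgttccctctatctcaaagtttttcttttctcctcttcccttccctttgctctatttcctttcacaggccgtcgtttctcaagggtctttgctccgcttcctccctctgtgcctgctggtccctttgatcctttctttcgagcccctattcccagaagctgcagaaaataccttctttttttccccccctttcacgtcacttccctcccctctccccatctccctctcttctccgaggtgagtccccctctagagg
Mtf2: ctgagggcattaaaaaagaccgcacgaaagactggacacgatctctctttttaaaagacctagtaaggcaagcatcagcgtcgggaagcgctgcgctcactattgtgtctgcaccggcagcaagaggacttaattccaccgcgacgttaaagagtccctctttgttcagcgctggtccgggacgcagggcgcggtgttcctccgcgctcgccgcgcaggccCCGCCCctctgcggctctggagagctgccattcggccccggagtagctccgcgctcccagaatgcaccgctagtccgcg
Cbx7: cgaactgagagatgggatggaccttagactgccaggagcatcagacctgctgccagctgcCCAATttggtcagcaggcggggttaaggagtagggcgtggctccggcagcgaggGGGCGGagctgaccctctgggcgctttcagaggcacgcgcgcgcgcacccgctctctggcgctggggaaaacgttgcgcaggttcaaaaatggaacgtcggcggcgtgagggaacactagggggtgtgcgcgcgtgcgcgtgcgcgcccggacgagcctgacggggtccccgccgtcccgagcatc
The Phc1 promoter holds 9 CpG dinucleotides and neither box, that of Mtf2 30 with 1 GC box, and that of Cbx7 33 with 1 CCAAT box and 1 GC box. Mtf2 has another annotated start at chr5:108077915-108078214 with 2 CpG and 3 CCAAT boxes. The remaining promoters held 17 (Eed) to 41 (Suz12) CpG, where the median of all 32851 promoters was 7. Over both strands the CCAAT box was in 7 of the 12 promoters against 37.4% of all, the GC box in 8 against 35.7%, the E-box CACGTG in 1 (Bmi1) against 7.15%, TATAAA in 1 (Jarid2) against 13.6% and the octamer ATGCAAAT in 0 against 1.74%. Neither box was thus common to the 3 promoters, and matches are a description of the sequence only.

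Averaged over the 4 depleted clones, Mtf2 fell by 0.33 (SE 0.04, adjusted p = 2.57e-07), Phc1 by 0.35 (SE 0.03, adjusted p = 5.34e-09) and Cbx7 by 0.25 (SE 0.04, adjusted p = 1.19e-05), while Bmi1 rose by 0.19 (SE 0.07, adjusted p = 0.0321). These are 4 of 10 genes, against 46.4% of all probes, and 0 changed by 1.5-fold against 3.56%. Bmi1 was below detection on most arrays, and its adjusted p was 0.0545 to 0.072 when any of 9 arrays was left out. These were Bub1b_R with Dox replicate 3, with Dox replicates 2 and 3 and without Dox replicate 1 of the Chek1_R-labelled arrays, Ppm1g_R with Dox replicates 1 and 2 and without Dox replicate 3, and Ppp2r1b_R with Dox replicate 3 and without Dox replicate 1. Eed averaged -0.11 (adjusted p = 0.0935) and Suz12 -0.05 (adjusted p = 0.205). Eed passed the test (-0.13) without Bub1b_R with Dox replicate 3 (adjusted p = 0.0364), without Bub1b_R without Dox replicate 1 (adjusted p = 0.0493), and without replicate 2 of the Chek1_R-labelled arrays, with Dox (adjusted p = 0.0428) or without it (adjusted p = 0.039). Suz12 did so (-0.07) without Bub1b_R without Dox replicate 3 (adjusted p = 0.0451). Leaving out all 6 arrays labelled Chek1_R, the mean of Eed over the other clones was -0.17 (adjusted p = 0.0153). Ezh2, Rnf2, Ring1 and Jarid2 averaged 0.02, 0.01, 0.03 and 0.07, none past the test.

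To set the response of the depleted clones beside that to removal of Dox in the control, the change in each depleted clone was set against the change in Ctrl_R. Mtf2 fell further than in Ctrl_R by 0.57 in Bub1b_R (SE 0.11, adjusted p = 0.00126) and by 0.56 in the Chek1_R-labelled arrays (SE 0.11, adjusted p = 0.000929). Cbx7 did so by 0.38 in Bub1b_R (SE 0.11, adjusted p = 0.0266) and by 0.46 in the Chek1_R-labelled arrays (SE 0.11, adjusted p = 0.00482), where Suz12 also fell further, by 0.35 (SE 0.09, adjusted p = 0.00932). That made 2 of 10 genes in Bub1b_R against 12.2% of all probes, and 3 in the Chek1_R-labelled arrays against 18.3%. In Ppm1g_R the limma test called 0 against 12% and in Ppp2r1b_R 0 against 8.28%, with 0 and 3 genes at an unadjusted p under 0.05. The 3 were Ezh2 at -0.23 (adjusted p = 0.125), Eed at -0.40 (adjusted p = 0.0919) and Mtf2 at -0.33 (adjusted p = 0.0757). At 1.5-fold there were 0 genes in each clone, against 5.15, 8.99, 5.27 and 3.28% of all probes in Bub1b_R, in the Chek1_R-labelled arrays, in Ppm1g_R and in Ppp2r1b_R. All 4 comparisons used the same Ctrl_R arrays, and the 5 calls depended on scaling: after median scaling Mtf2 was -0.53 (adjusted p = 0.0838) and -0.46 (adjusted p = 0.109), Cbx7 -0.32 (adjusted p = 0.193) and -0.35 (adjusted p = 0.114), in Bub1b_R and in the Chek1_R-labelled arrays, and Suz12 -0.30 (adjusted p = 0.134).

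Some of these calls rested on single arrays. Cbx7 in Bub1b_R had an adjusted p of 0.0766 without Bub1b_R with Dox replicate 3, 0.0596 and 0.0754 without Bub1b_R without Dox replicates 1 and 2, 0.0774 without Ctrl_R with Dox replicate 1 and 0.0644 without Ctrl_R without Dox replicate 3. Eed in Bub1b_R, at -0.42 (adjusted p = 0.0657) with all arrays, reached 0.0254 without Bub1b_R with Dox replicate 3, 0.0366 without Bub1b_R without Dox replicate 1 and 0.0215 without Ctrl_R without Dox replicate 2. Leaving out that last array also took Eed in Ppp2r1b_R to -0.51 (adjusted p = 0.0365). Mtf2 in Ppp2r1b_R reached 0.0336 without Ppp2r1b_R without Dox replicate 3 and 0.0412 without Ctrl_R with Dox replicate 2, and Ring1 in the Chek1_R-labelled arrays reached 0.38 (adjusted p = 0.0444) without their replicate 3 without Dox. The 2 dimmer Phc1 probes fell further than in Ctrl_R in the Chek1_R-labelled arrays, by 0.41 (adjusted p = 0.0256) and 0.67 (adjusted p = 0.0359).

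Whether the withdrawal change differed among the 5 clones was tested with a limma F-test. It passed for Mtf2 (adjusted p = 0.00123), Suz12 (adjusted p = 0.0113) and Cbx7 (adjusted p = 0.0143), or 3 of 10 genes against 30.6% of all probes. The adjusted p of Phc1 was 0.81 by its brightest probe and 0.0351 and 0.0388 by the others. For the remaining genes it was 0.0882 (Eed) to 0.882 (Bmi1). After median scaling it passed for 0 of the 10 genes, with 0.179, 0.408 and 0.222 for Mtf2, Suz12 and Cbx7.

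Levels of Polycomb genes also differed between clones irrespective of Dox. Eed was highest in Ppm1g_R, at 11.57, 11.59 and 11.57 with Dox, and lowest in Bub1b_R and Ctrl_R, where Ctrl_R with Dox read 10.05, 9.96 and 9.85. These groups lie far apart, and with Dox Eed was higher than in Ctrl_R by 1.63 in Ppm1g_R (adjusted p = 3.99e-12), 0.91 in Ppp2r1b_R (adjusted p = 8.05e-08) and 0.82 in the Chek1_R-labelled arrays (adjusted p = 7.07e-07). Without Dox the same differences were 1.34, 0.50 and 0.72. In Bub1b_R, placed in the same set as Ctrl_R by the lowest detected signal alone, Eed differed by 0.08 with Dox and -0.34 without it (adjusted p = 0.0086, and 0.0722 without Ctrl_R without Dox replicate 3). After median scaling the differences of Eed without Dox were -0.12 in Bub1b_R (adjusted p = 0.528) and 0.23 in Ppp2r1b_R (adjusted p = 0.159).

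Rnf2 had the widest range of condition means, 2.05, from 5.55 in Bub1b_R without Dox to 7.60 in Ppm1g_R with Dox. The arrays of the latter read 7.57, 7.34 and 7.89 and those of the former 5.66, 5.39 and 5.61. Relative to Ctrl_R, Rnf2 was higher by 1.49 in Ppm1g_R (adjusted p = 1.12e-06) and 1.19 in Ppp2r1b_R (adjusted p = 2.27e-05) with Dox, and by 1.20 and 1.28 without it. For the Chek1_R-labelled arrays it was higher by 0.67 with Dox and by 0.50 without it, the latter with an adjusted p of 0.0364 that became 0.137 or 0.0856 without their replicate 2 or 3 and 0.292 (0.26) without Ctrl_R without Dox replicate 2. Bub1b_R was lower than Ctrl_R, by 0.70 without Dox (adjusted p = 0.00558) and by 0.56 with it (adjusted p = 0.0327), and the latter ended without Bub1b_R with Dox replicate 2 (adjusted p = 0.142) or 3 (0.0809) or Ctrl_R with Dox replicate 1 (0.0805) or 2 (0.0921). For Rnf2 and Eed the 3 clones above Ctrl_R were the 3 of the other set of arrays. The background in these comparisons was high: among all probes 39.9, 49.6, 61.7 and 61.3% passed the test with Dox in Bub1b_R, in the Chek1_R-labelled arrays, in Ppm1g_R and in Ppp2r1b_R, where 3, 5, 6 and 5 of the 10 genes did. Without Dox it was 52.9, 60.6, 64.8 and 65.4% of probes and 8, 8, 6 and 7 genes.

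At 1.5-fold the counts with Dox were 0, 3, 3 and 2 genes, in that order, against 12.7, 17.6, 29.1 and 28.3% of probes, and without Dox 2, 1, 3 and 3 genes against 22.6, 28.8, 33.5 and 33.7%. With Dox these were Eed and Rnf2 in Ppm1g_R, in Ppp2r1b_R and in the Chek1_R-labelled arrays, and Jarid2 in Ppm1g_R and in the Chek1_R-labelled arrays. Jarid2 was detected on no Chek1_R-labelled or Ctrl_R array. Without Dox they were Mtf2 and Rnf2 in Bub1b_R, Eed in the Chek1_R-labelled arrays, Eed, Jarid2 and Rnf2 in Ppm1g_R, and Ezh2, Jarid2 and Rnf2 in Ppp2r1b_R. Ezh2 was lower than in Ctrl_R in all 4 clones without Dox, by 0.29 in Bub1b_R, 0.34 in the Chek1_R-labelled arrays, 0.25 in Ppm1g_R and 0.67 in Ppp2r1b_R (adjusted p = 2.88e-09). Its Ppp2r1b_R values without Dox were 10.87, 11.04 and 10.90, below the 11.55, 11.71 and 11.57 of Ctrl_R. With Dox it was lower by 0.29, 0.21 and 0.44 in the Chek1_R-labelled arrays, in Ppm1g_R and in Ppp2r1b_R, and the difference in Bub1b_R was -0.16 (adjusted p = 0.0508, and 0.0467 without Ctrl_R with Dox replicate 2). The difference in Ppm1g_R with Dox had an adjusted p of 0.052 without Ctrl_R with Dox replicate 3. After median scaling, Ezh2 in Bub1b_R without Dox was -0.05 (adjusted p = 0.692). All of these Ezh2 values are those of its brightest probe. Without Dox the second brightest averaged 6.44 in Bub1b_R, 7.02 in the Chek1_R-labelled arrays, 6.88 in Ppm1g_R and 6.75 in Ppp2r1b_R. In Ctrl_R without Dox that probe averaged 6.78, so it did not show the lower level in the Chek1_R-labelled arrays, in Ppm1g_R or in Ppp2r1b_R. Jarid2, not detected on any Ctrl_R array, was at least 1.21-fold higher in Ppm1g_R (adjusted p = 3.59e-05) and 1.12-fold in Ppp2r1b_R (adjusted p = 0.000194) without Dox, where 2 and 1 of 3 arrays detected it.

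Mtf2 differed from Ctrl_R without Dox in all 4 clones and with Dox in none. Without Dox it was lower by 0.66 in Bub1b_R (adjusted p = 1.59e-07), 0.37 in the Chek1_R-labelled arrays (adjusted p = 0.000358), 0.21 in Ppm1g_R (adjusted p = 0.0228) and 0.42 in Ppp2r1b_R (adjusted p = 5.87e-05). With Dox the differences were -0.09, 0.19, -0.02 and -0.10, with adjusted p of 0.0531 to 0.858. The difference in Ppm1g_R without Dox ended without its replicate 1 (adjusted p = 0.0534) or Ctrl_R without Dox replicate 1 (adjusted p = 0.0955), and the 0.19 passed the test without Ctrl_R with Dox replicate 2 (0.26, adjusted p = 0.0175). After median scaling Mtf2 differed in Ppp2r1b_R with Dox too (-0.41, adjusted p = 0.00829), a scaling under which the median of all probes in that comparison was -0.18, where it was -0.04 with quantiles. Cbx7 was lower without Dox in Bub1b_R (-0.43, adjusted p = 5.39e-05) and in the Chek1_R-labelled arrays (-0.23, adjusted p = 0.015). The second of these lost its call without their replicate 1 (adjusted p = 0.0522) or 2 (0.0703) or Ctrl_R without Dox replicate 3 (0.0576). Median scaling ended the Mtf2 calls in the Chek1_R-labelled arrays (-0.26, adjusted p = 0.0895) and in Ppm1g_R (-0.24, adjusted p = 0.119) and those of Cbx7 in Bub1b_R (-0.21, adjusted p = 0.0846) and in the Chek1_R-labelled arrays (-0.09, adjusted p = 0.482). With Dox, Cbx7 was higher in the Chek1_R-labelled arrays (0.23, adjusted p = 0.0195, and 0.0944 without their replicate 1 or 0.104 without Ctrl_R with Dox replicate 1) and in Ppm1g_R (0.21, adjusted p = 0.0246, and 0.0832 without its replicate 3 or 0.126 without the same Ctrl_R array).

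Suz12, a core subunit of PRC2, was lower in Bub1b_R by 0.37 without Dox (adjusted p = 4.5e-05) and by 0.20 with it (adjusted p = 0.016), and in the Chek1_R-labelled arrays by 0.26 without Dox (adjusted p = 0.00157). After median scaling the Bub1b_R differences of Suz12 were -0.16 (adjusted p = 0.167) and -0.03 (adjusted p = 0.838), and the one with Dox also ended without Bub1b_R with Dox replicate 1 (adjusted p = 0.0882) or Ctrl_R with Dox replicate 3 (adjusted p = 0.0715). Its differences without Dox in Ppm1g_R (0.17, adjusted p = 0.0292) and Ppp2r1b_R (-0.16, adjusted p = 0.0378) rested on single arrays. The first ended, at 0.05 to 0.0825, without any 1 array of Ppm1g_R without Dox or replicate 1 or 3 of Ctrl_R without Dox, and turned to -0.03 after median scaling. The second ended, at 0.0536 to 0.143, without replicate 2 or 3 of Ppp2r1b_R or 1 or 2 of Ctrl_R, both without Dox. Phc1 was lower in Bub1b_R, by 0.27 without Dox (adjusted p = 0.0013) and 0.29 with it (adjusted p = 0.00121), and in Ppm1g_R by 0.21 with Dox (adjusted p = 0.0076). After median scaling these were -0.07, -0.09 and -0.21, with adjusted p of 0.555, 0.491 and 0.0659. All of these Phc1 values are those of its brightest probe. The dimmer probes passed the test as lower without Dox in the Chek1_R-labelled arrays, in Ppm1g_R and in Ppp2r1b_R. They averaged 11.24, 11.13 and 11.13 there, against 11.74 in Ctrl_R, and 5.93, 5.76 and 5.80, against 6.82. With Dox in Bub1b_R they averaged 11.84 and 6.87, against 11.98 and 6.83 in Ctrl_R, and did not pass it. Ring1 was higher without Dox in Bub1b_R by 0.32 (adjusted p = 0.00717). Its differences in the Chek1_R-labelled arrays (0.24, adjusted p = 0.0314) and in Ppp2r1b_R (0.22, adjusted p = 0.0499) ended without any 1 of the Ctrl_R arrays without Dox, without replicate 1 or 2 of the former (adjusted p of 0.0534 to 0.221 over these) or replicate 1 or 3 of the latter (0.0762 to 0.163). Bmi1 passed the test in Ppp2r1b_R with Dox alone (-0.34, adjusted p = 0.0438), where no array of that clone detected it, and not without Ppp2r1b_R with Dox replicate 2 or 3 or Ctrl_R with Dox replicate 1 or 2 (adjusted p of 0.0807 to 0.166).

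**Figure D4:**
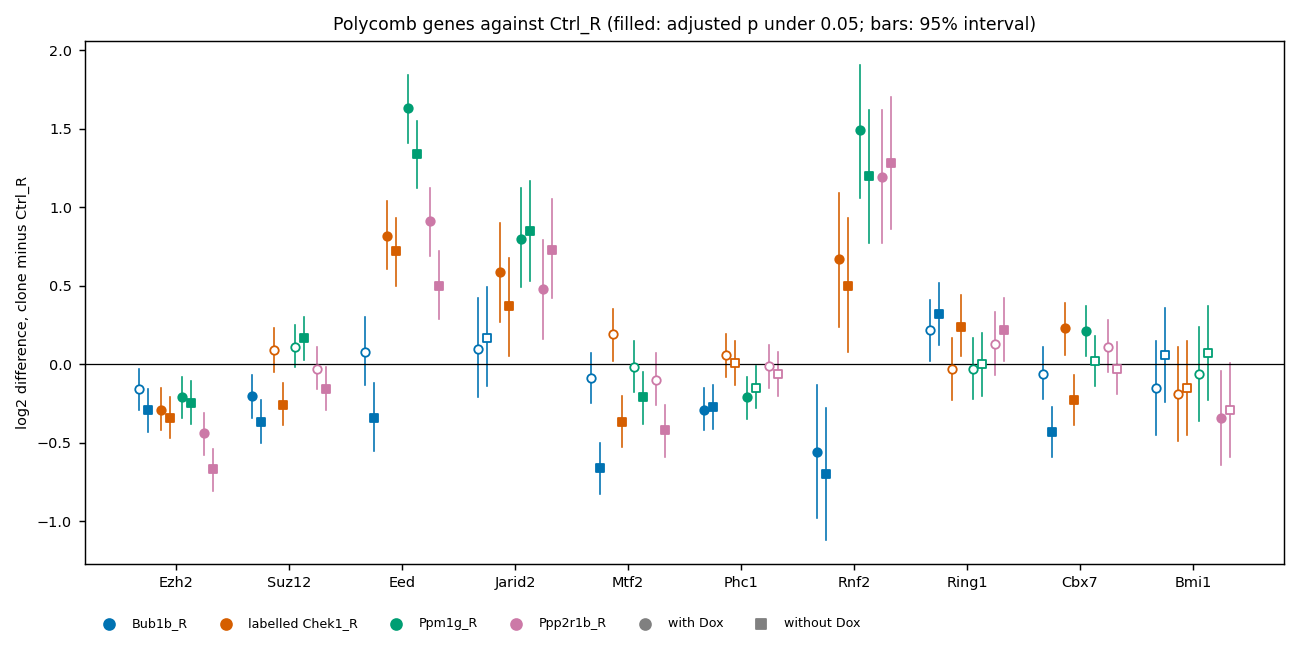
Log2 difference of each depleted clone from Ctrl_R for the brightest probe of each gene, with Dox (circles) and without Dox (squares); bars are 95% confidence intervals and filled symbols have an adjusted p under 0.05. Eed and Rnf2 lie well above 0 in Ppm1g_R and Ppp2r1b_R and in the Chek1_R-labelled arrays with and without Dox, while Mtf2 lies between -0.10 and 0.19 with Dox and between -0.66 and -0.21 without it.

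In the order of condition means, Phc1 had all 5 conditions with Dox (12.88 to 13.22) above all 5 without it (12.55 to 12.83). The lowest with Dox, Bub1b_R at 12.88, and the highest without it, at 12.83, differed by less than the SD of 0.07 between replicate arrays. Mtf2 ran from 11.30 in the Chek1_R-labelled arrays with Dox and 11.20 in Ctrl_R without it down to 10.53 in Bub1b_R without Dox. Cbx7 ran from 10.67 in the Chek1_R-labelled arrays with Dox to 10.05 in Bub1b_R without it. Suz12 ran from 13.33 in Ppm1g_R without Dox to 12.79 in Bub1b_R without Dox, Ezh2 from 11.61 in Ctrl_R without Dox to 10.94 in Ppp2r1b_R without Dox, and Ring1 over a range of 0.32. The mean of Bub1b_R without Dox was the lowest for Phc1, Mtf2, Cbx7, Suz12, Eed and Rnf2. For Suz12 and Rnf2 the next condition was Bub1b_R with Dox, only 0.07 and 0.01 higher, against an SD between replicate arrays of 0.07 and 0.27, so that these neighbours did not differ beyond their spread.

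The genes whose 10 condition means tracked those of Rnf2 and Eed, the most variable members, best were Mxi1 (r = 0.992), Rp23-297j14.5 (r = 0.992) and Pmpcb (r = 0.990) for Rnf2, and Stmn1 (r = 0.987), Med28 (r = 0.985) and Hadhb (r = 0.983) for Eed. These are Pearson correlations over 10 means that share the 2 sets of arrays, given as a description.

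Of 34 other genes of the Polycomb system that were listed, 31 were on the array and 26 were detected well enough to test. Upon Dox withdrawal 8 passed the test as higher and 3 as lower in Bub1b_R, 8 and 4 in the Chek1_R-labelled arrays, 4 and 2 in Ppm1g_R, 7 and 4 in Ppp2r1b_R and 3 and 1 in Ctrl_R. In either direction these are 11, 12, 6, 11 and 4 of 26 genes, beside 24.4, 30.9, 23.4, 25.3 and 7.55% of all probes. Their medians were 0.04, 0.05, 0.05, -0.06 and 0.14. At 1.5-fold Phf19 and Yaf2 alone changed. Phf19 (Pcl3) is a relative of Mtf2 that likewise assists PRC2, and in Bub1b_R it read 7.17, 7.20 and 7.06 with Dox and 6.54, 6.56 and 6.48 without it. In Ppm1g_R it read 7.07, 7.34 and 7.19 against 6.65, 6.83 and 6.30, and in the Chek1_R-labelled arrays 6.69, 6.84 and 6.78 against 6.35, 6.00 and 6.19. None of these groups overlapped, and Phf19 fell by 0.62 (adjusted p = 0.000191), 0.61 (adjusted p = 0.000296) and 0.59 (adjusted p = 0.000206). In Ppp2r1b_R the difference was 0.13 (adjusted p = 0.438) and in Ctrl_R 0.18 (adjusted p = 0.377). Yaf2, a subunit of variant PRC1 complexes, rose by 0.81 in the Chek1_R-labelled arrays (adjusted p = 2.45e-07), 0.56 in Ppp2r1b_R (adjusted p = 0.000101) and 0.45 in Bub1b_R (adjusted p = 0.000791). Its values in the Chek1_R-labelled arrays were 6.40, 6.67 and 6.37 with Dox and 7.23, 7.36 and 7.29 without it, and in Ctrl_R it differed by 0.25 (adjusted p = 0.117, and 0.0348 without Ctrl_R without Dox replicate 1).

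The last list held 32 developmental regulators known as Polycomb targets in ESCs, of which 31 were on the array and 16 passed the filter. Because a gene that is silent in most conditions passes only where it is switched on, the counts are a description. The share of all probes given beside them is not a like background. At 1.5-fold 11 were higher in Bub1b_R, 9 in the Chek1_R-labelled arrays, 8 in Ppm1g_R, 4 in Ppp2r1b_R and 0 in Ctrl_R, and 0 were lower, where 2.94, 4.49, 2.3, 2.77 and 0.706% of all probes were higher. The 4 in Ppp2r1b_R include Eomes, which no array of that clone detected. Evx1, a homeobox gene of the primitive streak, read 7.60, 7.75 and 7.55 with Dox and 9.97, 10.00 and 10.06 without it in Bub1b_R. In the Chek1_R-labelled arrays it read 5.36, 5.62 and 5.20 against 9.48, 9.50 and 9.50. Evx1 rose by 2.38 and 4.10 there, and by 1.60 in Ppm1g_R and 1.54 in Ppp2r1b_R, where Ctrl_R gave -0.28 (adjusted p = 0.244). Cdx2, a caudal homeobox gene, rose by 1.73, 3.97, 1.21 and 1.54 in Bub1b_R, in the Chek1_R-labelled arrays, in Ppm1g_R and in Ppp2r1b_R, with 0.39 in Ctrl_R (adjusted p = 0.109). Msx1 rose by 1.98, 2.81, 1.01 and 1.07 in the same order, with -0.19 in Ctrl_R.

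Lhx1, a LIM homeobox gene, was detected on no array with Dox. Without Dox it was at least 5.45-fold higher in Bub1b_R (adjusted p = 1.18e-12), 3.37-fold in the Chek1_R-labelled arrays (adjusted p = 1.49e-12) and 1.21-fold in Ppm1g_R (adjusted p = 3.5e-05), and not detected in Ppp2r1b_R or Ctrl_R. Isl1 rose by 2.01 in Bub1b_R, was at least 2.43-fold higher in the Chek1_R-labelled arrays and 1.79-fold in Ppm1g_R, and differed by 0.08 in Ppp2r1b_R (adjusted p = 0.733). Eomes, which is also among the primitive streak markers, was at least 2.53-fold higher in Bub1b_R and 2.08-fold in the Chek1_R-labelled arrays and rose by 1.18 in Ppm1g_R, while it was not detected in Ppp2r1b_R or Ctrl_R. Gsc rose by 1.35, 1.82 and 0.35 in Bub1b_R, in the Chek1_R-labelled arrays and in Ppm1g_R, the last with an adjusted p of 0.0171 that became 0.0856 without Ppm1g_R with Dox replicate 2 and 0.127 without Ppm1g_R without Dox replicate 3. In Ppp2r1b_R Gsc differed by -0.20 (adjusted p = 0.167), or -0.31 (adjusted p = 0.0497) without Ppp2r1b_R without Dox replicate 3. Hoxd10 was at least 2.27-fold higher in the Chek1_R-labelled arrays and rose by 0.74 in Ppm1g_R and 0.60 in Bub1b_R (adjusted p = 0.0263). In Bub1b_R that became 0.0558 to 0.0865 when any of its arrays but without Dox replicate 1 was left out. In Ppp2r1b_R Hoxd10 read 5.22, 5.03 and 6.44 with Dox and 6.10, 5.89 and 5.95 without it. Without the replicate 3 that stood apart its difference was 0.85 (adjusted p = 4.01e-07) in place of 0.41 (adjusted p = 0.134). That replicate was the only array with Dox in this clone to detect Hoxd10, so the 0.85 is set against arrays below detection.

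**Figure D5:**
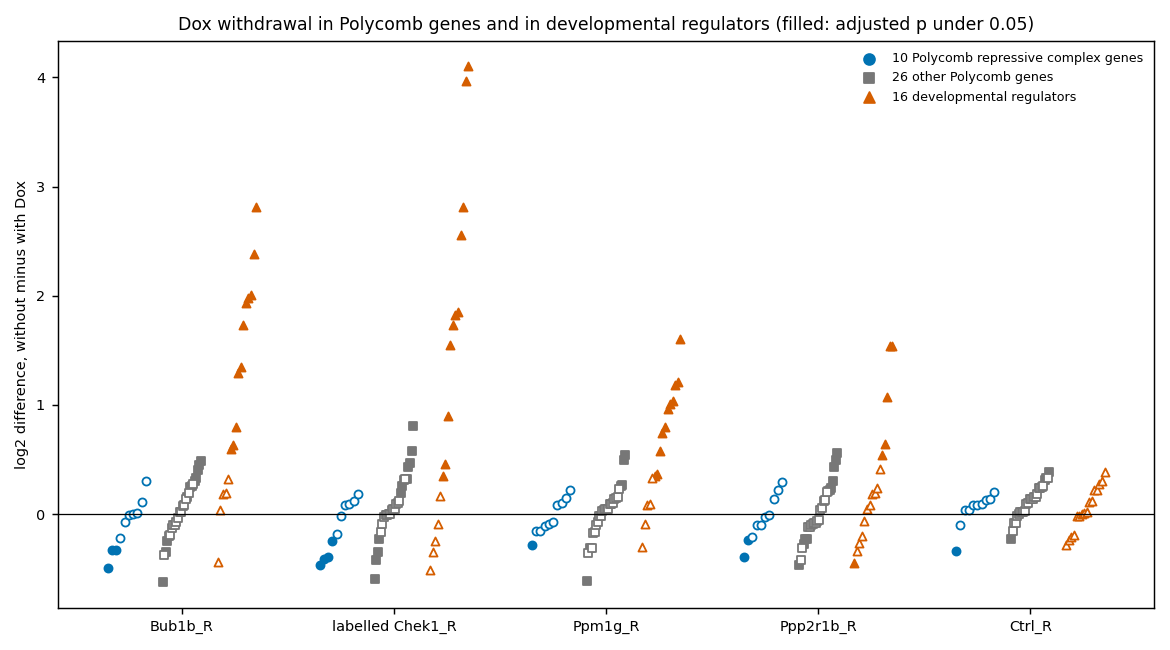
Log2 difference, without minus with Dox, of every tested gene in the 10 Polycomb genes, the 26 other genes of the system and the 16 developmental regulators (circles, squares and triangles), by clone, filled where the adjusted p was under 0.05. The medians of the first 2 lists lie within -0.10 and 0.14, and those of the developmental regulators are 1.05, 1.22, 0.66, 0.19 and 0.02 in Bub1b_R, in the Chek1_R-labelled arrays, in Ppm1g_R, in Ppp2r1b_R and in Ctrl_R. The regulators shown are those that passed the filter, some of them mainly or only through arrays without Dox. Their list was chosen with earlier results of these data known, so its medians are a description and not a measure against the other lists.

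Beside the rise of these regulators, the summed level of the 4 primitive streak markers went from 1510 to 1600 up to 6050 to 6100 in Bub1b_R, from 347 to 364 up to 4500 to 5020 in the Chek1_R-labelled arrays, from 1470 to 1540 up to 2610 to 2710 in Ppm1g_R, from 824 to 871 up to 2580 to 3020 in Ppp2r1b_R and from 179 to 202 up to 270 to 289 in Ctrl_R. Mixl1 and Eomes were detected on no array of Ctrl_R or Ppp2r1b_R. Of the feeder markers, 2 of 5 tested rose in Bub1b_R, 4 in the Chek1_R-labelled arrays, 4 in Ppm1g_R, 3 in Ppp2r1b_R and 0 in Ctrl_R. The 4 in the Chek1_R-labelled arrays include Col3a1, which none of these arrays detected, so its call there compares signals below detection. Thy1, on the same list, fell in Bub1b_R (-0.32, adjusted p = 0.000849), in the Chek1_R-labelled arrays (-0.81, adjusted p = 1.25e-09) and in Ppm1g_R (-0.61, adjusted p = 4.5e-07), and no feeder marker fell in Ppp2r1b_R or Ctrl_R. The list had summed levels of 771 to 843 and 789 to 816, 703 to 714 and 733 to 834, 587 to 612 and 599 to 629, 685 to 733 and 863 to 1000, and 805 to 839 and 829 to 833 with and without Dox. Of the ESC markers 4, 3, 4, 6 and 1 of 7 fell. Of 4 epiblast markers 2, 1, 2, 2 and 1 rose and 0, 1, 1, 1 and 0 fell, and of 4 tested markers of extraembryonic endoderm 3, 2, 1, 1 and 1 rose and 0, 0, 1, 1 and 0 fell. The part of these cell type markers in the changes of Phc1, Mtf2 and Cbx7 was not tested.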

How the data were processed

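The authors deposited a signal intensity for each of 25697 probes on 30 Illumina mouse WG-8 v2 arrays, background-corrected but without normalization across arrays, and the submitters' notes name lumi without a version. The deposited detection p-value of each probe and array was used as well. In 2 columns of detection p-values, 46 and 14 cells held spreadsheet dates. Of these 28 and 6 were converted back, and 18 and 8 took the value of the probe nearest in signal. Depth does not apply to arrays, and 3 arrays a condition limit the precision.

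Intensities were normalized with neqc (limma 3.58.1 in R 4.3.3; normexp with detection p-values, an offset of 16, quantiles, log2). The filter asked for detection at p under 0.05 on 3 or more arrays and left 15151 probes and 11177 genes, and a gene was represented by its brightest remaining probe. A limma fit of 10 condition means over all 30 arrays, with 20 residual degrees of freedom, gave every difference and adjusted p, with Benjamini-Hochberg adjustment per comparison. All 10 Polycomb genes were named. Of each other list, the genes named are those that changed by 1.5-fold in at least 1 clone, at most 8, by their largest change in any clone, and for the 3 members of widest range the 3 genes that track them best, of which those of 1 member are not reported here. The members and lists were chosen with earlier results of these data known. "At least" folds set the mean over all arrays of the group with detection against a floor in the other group. On each array that floor is the lowest detected value or the probe's own value, whichever is higher. Promoters came from RefSeq tables on GRCm38.p6. The scripts were tested on simulated data. Python 3.11.15 with matplotlib 3.10.9 drew the figures. Alternatives tried were background correction, scaling, offset, detection filters, fold limit, probe choice, the replicate block, fewer arrays, leaving out each array, and the methods' t-test.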

Additional observations from a re-analysis of the deposited data

Results flagged for a closer look

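The changes below differed between a depleted clone and Ctrl_R, by the limma test of the difference itself, and are given as the change in the clone minus the change in Ctrl_R, in log2 units. All of them share the Ctrl_R arrays. Mtf2 gave -0.57 in Bub1b_R and -0.56 in the Chek1_R-labelled arrays, and Cbx7 gave -0.38 and -0.46. Suz12 gave -0.35 in the Chek1_R-labelled arrays, where the second brightest Phc1 probe gave -0.41 and the dimmest -0.67. Phf19 gave -0.80 in Bub1b_R (adjusted p = 0.00148), -0.77 in the Chek1_R-labelled arrays (adjusted p = 0.00108) and -0.78 in Ppm1g_R (adjusted p = 0.0017). Yaf2 gave 0.57 in the Chek1_R-labelled arrays (adjusted p = 0.00339).

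Among the developmental regulators, Evx1 gave 2.66 in Bub1b_R, 4.39 in the Chek1_R-labelled arrays, 1.88 in Ppm1g_R and 1.83 in Ppp2r1b_R. In the same order Cdx2 gave 1.35, 3.58, 0.82 and 1.15, and Msx1 gave 2.17, 3, 1.19 and 1.26. Lhx1 gave 2.70, 2.45 and 0.86 in the first 3 of these, Eomes 1.70, 1.51 and 0.95, and Isl1 2.03, 1.57 and 1.06. Gsc gave 1.23 in Bub1b_R and 1.71 in the Chek1_R-labelled arrays, and Hoxd10 gave 1.83 in the latter. Lhx1, Eomes and Hoxd10 were detected on no Ctrl_R array, so these fitted values depend on the offset. Without background correction several of these calls were lost: Cdx2 in Bub1b_R (0.97, adjusted p = 0.1), Ppm1g_R (0.42, adjusted p = 0.527) and Ppp2r1b_R (0.81, adjusted p = 0.198), Msx1 in Ppm1g_R (1.93, adjusted p = 0.106) and Ppp2r1b_R (2.41, adjusted p = 0.0532), Lhx1 in Bub1b_R (3.88, adjusted p = 0.061) and Ppm1g_R (3.10, adjusted p = 0.14), and Eomes in the Chek1_R-labelled arrays (3.39, adjusted p = 0.064) and Ppm1g_R (0.56, adjusted p = 0.829). Groups of 3 arrays are too small for a test of single outlying arrays.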

How the results depend on the processing

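Of 4454 values of named genes under alternatives, 4256 kept their direction and side of the threshold or changed sign with neither value past it (103 of these), 150 lost the test, 47 gained it and 1 reversed: Suz12 in Ppm1g_R against Ctrl_R without Dox, -0.03 after median scaling in place of 0.17. The cause was not tested.

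Counts are of the 10 Polycomb genes past the test. Median scaling gave 1 in Bub1b_R, 1 in Ppp2r1b_R and 0 in Ctrl_R on withdrawal, 0 relative to Ctrl_R in Bub1b_R and in the Chek1_R-labelled arrays, and 0 by the F-test. Only the arrays compared gave 1 in Ppp2r1b_R and 0 in Ctrl_R. The methods' t-test gave 2 in Bub1b_R, where Phc1 and Cbx7 lost the test and Bmi1 gained it (0.30, adjusted p = 0.0382), 3 in Ppm1g_R, 0 in Ppp2r1b_R and 0 in Ctrl_R after Benjamini-Hochberg. The mean of all probes gave 0 in Ctrl_R, and the dimmer Phc1 probes, chosen after seeing the data, gave 0 in Ctrl_R and, for the dimmest, 0 in Ppm1g_R. One array left out gave 1 to 2 in Ppp2r1b_R, and relative to Ctrl_R 1 to 3 in Bub1b_R and 0 to 1 in Ppp2r1b_R.

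At 1.5-fold, dropping the fold limit gave 3, 4, 1, 2 and 1 on withdrawal in Bub1b_R, the Chek1_R-labelled arrays, Ppm1g_R, Ppp2r1b_R and Ctrl_R, 2 and 3 relative to Ctrl_R in the first 2, 4 in the mean, 8, 8, 6 and 7 against Ctrl_R without Dox and 3, 5, 6 and 5 with it. The second brightest Phc1 probe gave 1 in the Chek1_R-labelled arrays and 1 in Ppp2r1b_R, and the dimmest gave 1 in each and 1 relative to Ctrl_R in the Chek1_R-labelled arrays. No background correction (signals under 1 set to 1) gave 1 in the mean, 2 in the Chek1_R-labelled arrays without Dox and 1 in Bub1b_R with Dox, against Ctrl_R. Median scaling gave 1 in Bub1b_R and 5 in Ppp2r1b_R without Dox, and an offset of 50 gave 1 in Bub1b_R without Dox and 1 in the Chek1_R-labelled arrays with Dox. One array left out gave 0 to 1 relative to Ctrl_R in Bub1b_R and in the Chek1_R-labelled arrays, 1 to 2 in both without Dox and 0 to 1 in Bub1b_R with Dox.

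Of the 26 other Polycomb genes at 1.5-fold on withdrawal, an offset of 50 gave 0 in Bub1b_R, 1 in the Chek1_R-labelled arrays and 0 in Ppm1g_R, no fold limit 11, 12, 6, 11 and 4 in the 5 clones, no background correction 2 in Ppm1g_R and 2 in Ppp2r1b_R, and the t-test 0 in Ppm1g_R. One array left out gave 1 to 3 in the Chek1_R-labelled arrays, 0 to 2 in Ppm1g_R and 0 to 1 in Ppp2r1b_R. Of the 16 developmental regulators, no background correction gave 5 in Ppm1g_R and the t-test 2 in Ppp2r1b_R.

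With the replicate number as a block, the 39 counts compared were equal. These are the counts on withdrawal, relative to Ctrl_R, in the mean and by the F-test, and those against Ctrl_R at 1.5-fold. Against Ctrl_R without a fold limit, Ring1 in Ppp2r1b_R against Ctrl_R without Dox lost the test (0.22, adjusted p = 0.0503) and Ezh2 in Bub1b_R against Ctrl_R with Dox gained it (-0.16, adjusted p = 0.0484). Same-numbered arrays did not deviate together, with 1 of 15 pairs over 0.1 and 12 of 30 arrays closest to their own number. Signal over background limits Jarid2 and Bmi1, detected on 6 and 10 of 30 arrays.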
